A study of Mus musculus with 47 samples.

Results

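Leucine restriction was compared with the Control diet in the male 3xTg libraries whose labels carry the code M, 3 LeuR libraries (LeuR 19, 20 and 21) against 4 Control libraries (Control 1, 3, 4 and 5). These 7 libraries were chosen by their labels, out of 37 libraries with a column of counts and 47 in the sample labels. The other 10 labelled libraries are male and were not analysed here. All groups were 3xTg mice, a model of Alzheimer's disease that carries mutant human forms of the amyloid precursor protein, tau and presenilin, so that the Control males carried the same transgenes as the LeuR males. From 6 months of age the mice were fed amino acid-defined diets for 9 months. These were the Control diet or a diet low in leucine (LeuR), isoleucine (IleR) or valine (ValR). Males on the IleR and ValR diets entered the main fit of all 14 male libraries. The 23 female libraries, on the same 4 diets, were used where stated. The labels give brain as the tissue, the study's methods name the left hemisphere, and its results speak of the whole brain. Whether the dissection was the same in every male group is not given in the sources used here. The extraction text of the labels names liver, and Alb, the albumin gene of hepatocytes, was at 0.0454, 0 and 0.336 CPM (counts per 1000000 counts of a TMM-scaled library) in LeuR 19, 20 and 21 and at 0, 0.116, 0.0640 and 1.21 CPM in Control 1, 3, 4 and 5. Syt1, a synaptic vesicle protein of neurons, was at 329.6, 573 and 861 CPM and 1666, 1708, 1052 and 1619 CPM in the same order of libraries, which is used throughout for values per library. The 7 libraries held between 12682687 and 22315366 counts each. No label states that each library came from a separate mouse. The p-values of the main fit measure the spread between libraries of a diet group, pooled over all 14 male libraries.

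Leucine is an essential branched-chain amino acid. Leucine that enters a cell is sensed by Sestrins, which restrain activation of the kinase complex mTORC1 when leucine is low. Lack of amino acids is sensed by the kinase GCN2 (Eif2ak4), which raises the translation of the transcription factor ATF4 and thereby the expression of its target genes. Leucine is broken down by transamination, by oxidative decarboxylation in the branched-chain ketoacid dehydrogenase complex and by a series of mitochondrial steps that end in acetyl-CoA and acetoacetate. The brain also differs widely in transcripts from region to region: Hox genes are expressed in the hindbrain and spinal cord and not in the forebrain, granule and Purkinje cells are neurons of the cerebellum, and neuropeptides such as oxytocin, vasopressin and orexin are made in the hypothalamus. In RNA from bulk tissue, fewer cells of a type and less RNA per cell cannot be told apart.

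The LeuR libraries stood apart from the Control libraries, and from each other, in the regions whose genes they held. The mean log2 CPM of cortical, hippocampal and striatal genes was subtracted from that of cerebellar, Hox and brainstem genes to give a hindbrain score. It was 1.51, -0.75 and -4.55 in LeuR 19, 20 and 21 and -7.69, -6.28, -4.86 and -6.87 in Control 1, 3, 4 and 5. The score thus averaged -1.26 ± 3.06 (SD, n = 3) in LeuR and -6.42 ± 1.19 (SD, n = 4) in Control males, a difference of 5.16 log2 units with no overlap. The exact two-sided permutation test gave p = 0.0571, the smallest value that 3 libraries against 4 can give, and 0.0762 after adjustment over the hindbrain, cerebellum, brainstem and forebrain scores. LeuR 21 lay next to Control 4, whereas LeuR 19 and LeuR 20 lay far above every Control library. The 23 female libraries spanned scores from -7.79 to 1.93, and their Control libraries alone from -7.79 to -1.56. The IleR males (-0.73 to 0.78) and the ValR males (1.16 to 2.70) also lay above the Control males.

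The plot of the regional lists shows that the 3 LeuR libraries were not alike. LeuR 19 held the most Hox and brainstem transcripts, LeuR 20 the most cerebellar transcripts, and LeuR 21 had the hypothalamic genes at a mean of 4.23 log2 CPM against -1.16 in LeuR 19, -1.24 in LeuR 20 and -2.27 to -1.73 in the Control libraries. In LeuR 21 the Hox genes were at -3.02 log2 CPM, as low as in the Control libraries (-3.06 to -3.01), against 1.58 in LeuR 19 and 0.20 in LeuR 20.

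**Figure D1:**
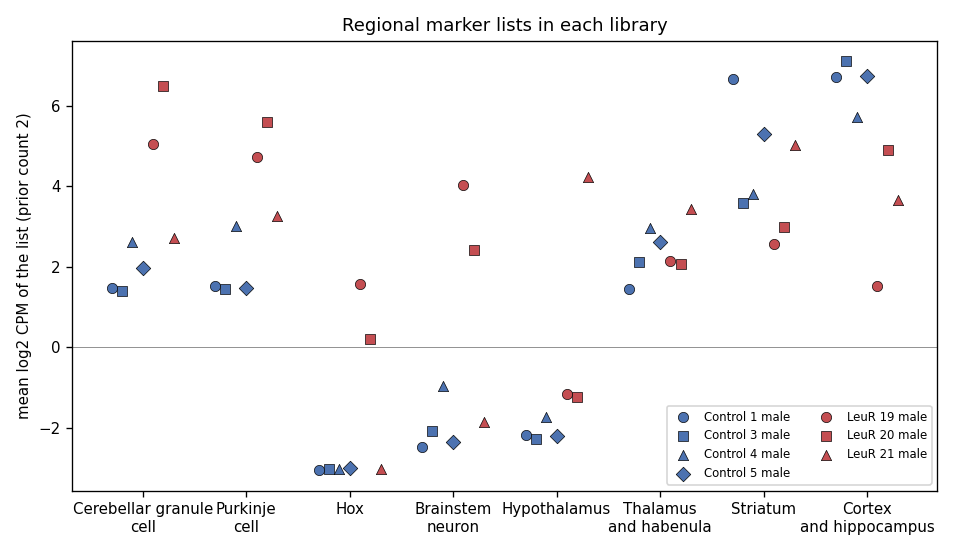
Mean log2 CPM (prior count 2) of 8 lists of regional marker genes in each male library, with Control libraries in blue and LeuR libraries in red and 1 marker shape per library. The hypothalamic list is at 4.23 in LeuR 21 and at -1.16 or lower in the other 6 libraries, and the Hox list is above 0 in LeuR 19 and LeuR 20 alone.

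Across the 22197 genes tested, 845 were higher (3.81%) and 1404 were lower (6.33%) in LeuR than in Control males at an adjusted p under 0.05 in edgeR's quasi-likelihood test, 10.1% in either direction. At an unadjusted p under 0.05 there were 6003 genes (27%). The fit held the 4 male diet groups together and took 1 estimate of the spread from all 14 male libraries. The groups were not equally spread, with an SD of the hindbrain score of 3.06 in LeuR, 1.19 in Control, 0.76 in IleR and 0.66 in ValR males. With LeuR and Control males alone in the fit, 21015 genes were tested and 0 passed, with a smallest adjusted p of 0.0615 and 4607 genes at an unadjusted p under 0.05. The median log2 fold change of all genes was 0.05. For 1816 genes (8.18%) the 3 LeuR libraries all lay above the 4 Control libraries, and for 2153 genes (9.7%) all lay below. Leaving out LeuR 19 took the counts to 142 higher and 401 lower, and leaving out LeuR 21 took them to 1606 and 1734. Leaving out Control 4 gave 1769 and 2183, leaving out Control 1 or Control 3 gave 214 and 646 or 189 and 612, leaving out Control 5 gave 401 and 888, and leaving out LeuR 20 gave 549 and 1052.

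**Figure D2:**
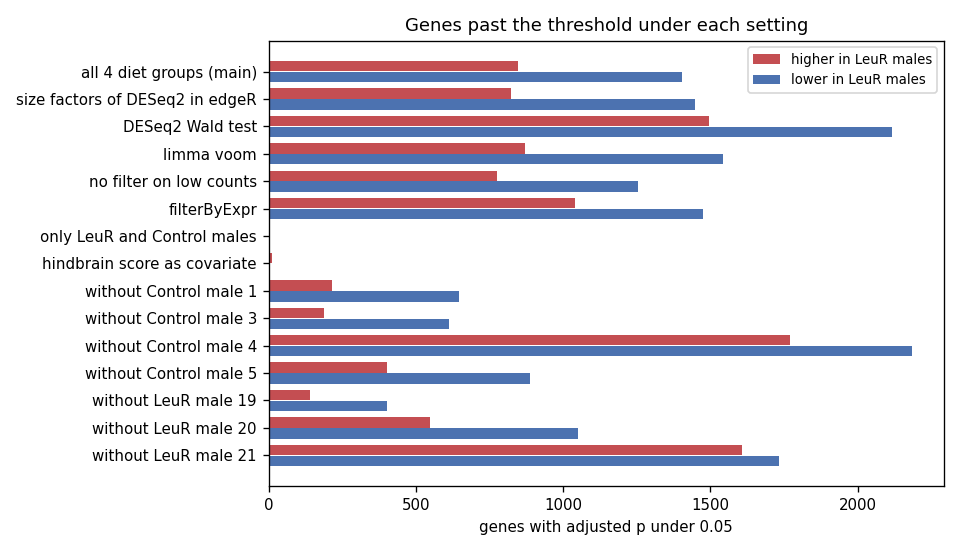
Number of genes with an adjusted p under 0.05 (x axis) that were higher (red) or lower (blue) in LeuR than in Control males, for each fit on the y axis. The counts are 845 and 1404 with all 4 diet groups, 0 and 0 with LeuR and Control males alone, and 13 and 0 with the hindbrain score as a covariate.

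Cerebellar genes were higher in LeuR males, carried by LeuR 19 and LeuR 20. Of 12 granule cell genes, 8 rose and 0 fell, with a median log2 fold change of 2.25, and of 10 Purkinje cell genes, 6 rose and 0 fell, with a median of 2.79, against 3.81% higher over all genes. Leaving out 1 library gave 5 (without Control 3) to 11 (without LeuR 21) granule cell genes, and 2 Purkinje cell genes without Control 3, 3 without LeuR 19 or LeuR 20 and 4 to 8 without another. With limma voom, 4 granule cell and 5 Purkinje cell genes rose. Gabra6, the GABA-A receptor subunit of granule cells, was at 31.9, 111 and 0 CPM in the LeuR libraries and at 0, 0, 0.0640 and 0.0550 CPM in the Control libraries. Against a limit of 3 counts per Control library, its mean was at least 259-fold higher in LeuR males, and LeuR 21 had no read of it. Cbln3, a secreted partner of the synaptic organiser cerebellin in granule cells, was at 78.6, 298 and 0.671 CPM against 0.273, 0.233, 0.448 and 1.04 CPM (log2 fold change of 7.89 ± 1.35 (SE), adjusted p = 0.00618). Cbln1, the cerebellin itself, was higher in every LeuR library, at 93.2, 244 and 101 CPM against 7.63, 4.65, 23.5 and 3.74 CPM (log2 fold change of 3.89 ± 0.62 (SE), adjusted p = 0.00452). Zic1, a zinc finger factor of granule cells, behaved likewise, at 123, 355 and 114 CPM against 17.8, 21.0, 42.8 and 43.2 CPM (adjusted p = 0.00694). In LeuR 21, Cbln1 and Zic1 were thus above the Control range while Gabra6 and Cbln3 were not. Which cells held them there was not tested. Pcp2, a Purkinje cell protein, was at 16.1, 44.2 and 0.224 CPM against 0.273, 0, 0.576 and 0.275 CPM (log2 fold change of 6.13 ± 1.25 (SE), adjusted p = 0.0115), with LeuR 21 inside the Control range. The calls of Gabra6, Cbln3 and Pcp2 were lost with limma voom. Lhx1, a LIM homeobox factor of Purkinje cells and other neurons, was at 13.5, 25.7 and 9.73 CPM against 0, 0.349, 8.39 and 0.110 CPM and did not pass (log2 fold change of 2.89 ± 0.93 (SE), adjusted p = 0.0638). Lhx1 was near 0 in Control 1, 3 and 5 but not in Control 4, whose value was close to that of LeuR 21.

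Hox genes were read in LeuR 19 and LeuR 20 and almost not at all in LeuR 21 or the Control libraries. Of 18 Hox genes, 12 had enough reads in some diet group to be tested, and 8 of them rose, against 3.81% of all genes. All 12 were at or under 3 counts in every Control library, so that a fall could not have been seen and the count is a description. Their median log2 fold change of 8.25 depends on the fit, and with each gene at its lower bound it was 4.32. Hoxb3, a patterning gene of the hindbrain, was at 17.6, 6.39 and 0 CPM in the LeuR libraries and at 0.0681, 0, 0.0640 and 0 CPM in the Control libraries, at least 43.5-fold higher in the mean (adjusted p = 0.0198). Hoxc4 was at 12.7, 3.00 and 0 CPM and had no read in any Control library, at least 28.5-fold higher (adjusted p = 0.0394). Hoxd3 was at 16.3, 3.08 and 0 CPM with no read in any Control library (adjusted p = 0.0291). Hoxa5 was at 9.25, 2.85 and 0 CPM, again with no read in the Control libraries, and did not pass (adjusted p = 0.0820). Hoxb4 differed from the others by a trace in LeuR 21, at 6.58, 2.47 and 0.168 CPM against 0, 0.0582, 0.0640 and 0.110 CPM (adjusted p = 0.0424). Without LeuR 19, without Control 1 or without Control 3, 0 of the Hox genes passed, without Control 5, 2 passed, without LeuR 20, 5 passed, and without LeuR 21, 12 passed. With limma voom 0 passed, and with DESeq2 12.

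Of 12 brainstem neuron genes, 10 rose and 0 fell, against 3.81% higher and 6.33% lower over all genes, with a median log2 fold change of 6.16. For the 6 genes near 0 in Control males a fall could not have been seen, and with these at their lower bounds the median was 5.16. Without LeuR 19 only 2 rose, with a median of 3.45, without Control 3, 3 rose, without Control 1, 5, and without Control 5, 6, against 8 to 11 without another library and 1 with limma voom. Slc6a5, the glycine transporter of inhibitory neurons of the brainstem and spinal cord, was at 447, 269.8 and 0.447 CPM against 0.0681, 0.233, 2.75 and 0.110 CPM (log2 fold change of 8.25 ± 1.52 (SE), adjusted p = 0.00795), and LeuR 21 was inside the Control range, which Control 4 extended. Slc6a2, the noradrenaline transporter of the locus coeruleus, was at 23.9, 2.70 and 0 CPM, at least 48.1-fold above the limit for the Control libraries (adjusted p = 0.0140). Tlx3, a homeobox factor of hindbrain and spinal neurons, was at 1.86, 4.93 and 0 CPM and had no read in any Control library (adjusted p = 0.0179).

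Cortical genes were lower in LeuR males. Of 14 genes of cortex and hippocampus, 8 fell and 0 rose, with a median log2 fold change of -2.54, against 6.33% lower over all genes, and in 12 of them all LeuR libraries lay below all Control libraries, against 9.7% over all genes. Without Control 3, 5 fell, and without any other library 6 to 9. Tbr1, a T-box factor of deep-layer neurons, was at 0.544, 17.8 and 15.2 CPM in the LeuR libraries and at 167, 171, 61.9 and 158 CPM in the Control libraries (log2 fold change of -3.67 ± 0.75 (SE), adjusted p = 0.0116). Emx1, a homeobox factor of the dorsal telencephalon, was at 1.13, 2.00 and 0.727 CPM against 14.7, 21.7, 6.34 and 18.5 CPM (adjusted p = 0.00811). Control 4 was the lowest Control library for both and still lay above every LeuR library. Cux2, a factor of upper-layer neurons, showed a smaller fall, at 52.0, 56.7 and 58.0 CPM against 117, 144, 80.4 and 131 CPM (log2 fold change of -1.10 ± 0.16 (SE), adjusted p = 0.00359).

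The fall was uneven over the forebrain. Crym, a thyroid hormone-binding protein of cortex and striatum, was at 0.952, 36.9 and 14.9 CPM against 34.5, 37.8, 30.1 and 19.1 CPM, with overlap (log2 fold change of -0.81 ± 0.98 (SE), adjusted p = 0.638). None of 14 striatal genes passed in edgeR's test, with a median log2 fold change of -1.29 and 6 at an unadjusted p under 0.05, against 27% of all genes. With DESeq2, without Control 4 and without LeuR 21, 4 of them were lower in each case. The Control libraries themselves differed widely here. Adora2a, the adenosine receptor of the indirect pathway, was at 93.3, 7.45, 2.24 and 32.1 CPM in the Control and 3.17, 2.70 and 9.39 CPM in the LeuR libraries (adjusted p = 0.0777).

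Hypothalamic genes were higher in LeuR males, and most of that signal was in 1 library. Of 14 listed, 10 could be tested, 8 rose and 0 fell, against 3.81% higher and 6.33% lower over all genes, with a median log2 fold change of 6.22, also with the 4 genes near 0 in Control males at their lower bounds. For these 4 a fall could not have been seen. Without LeuR 21, 2 rose and the median was 1.10, and without Control 3, 2 rose and the median was 5.89. Without Control 1, 4 rose, without Control 5, 5, with DESeq2, 3, and with limma voom, 2. Oxt, the oxytocin gene, was at 0.0454, 0.231 and 147 CPM in LeuR 19, 20 and 21 and at 0, 0.116, 0.0640 and 0 CPM in the Control libraries, and 99.8% of its LeuR signal came from LeuR 21. LeuR 21 likewise held nearly all of the LeuR signal of Avp (vasopressin) at 0.0907, 0 and 102 CPM, of Pmch (melanin-concentrating hormone) at 0.136, 0.308 and 322 CPM and of Hcrt (orexin) at 0.181, 0.0770 and 77.1 CPM. None of the Control libraries exceeded 0.448 CPM for these 4 genes. Otp, a homeobox factor of neuroendocrine neurons, was present in all 3 LeuR libraries, at 15.2, 7.09 and 36.1 CPM against 0, 0.116, 0.960 and 0 CPM (log2 fold change of 6.18 ± 1.28 (SE), adjusted p = 0.0121). Gal, the neuropeptide galanin, was likewise higher in each, at 3.99, 1.00 and 21.5 CPM against 0.0681, 0, 0.384 and 0 CPM (log2 fold change of 6.27 ± 1.34 (SE), adjusted p = 0.0139). Of 12 thalamic and habenular genes 1 rose, Gbx2, at 3.90, 0.770 and 6.15 CPM against 0.204, 0.407, 0.256 and 0.385 CPM (adjusted p = 0.0321), and 0 fell, close to the 3.81% and 6.33% of all genes. Gbx2 was no longer called without any 1 of Control 1, Control 3, Control 5, LeuR 19 and LeuR 21.

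None of 5 blood genes passed in edgeR's test, with a median log2 fold change of 1.95, whereas 3 were higher with DESeq2 and all 5 without LeuR 21. Hbb-bs, a beta globin, was at 7379, 2385 and 890.2 CPM against 220.4, 775, 1142 and 1477 CPM (adjusted p = 0.0822). The summed level of the blood list was 19888, 6798 and 2502 CPM in LeuR 19, 20 and 21 and between 582 and 4053 CPM in the Control libraries. The choroid plexus list summed to 5119, 929 and 78.9 CPM in the LeuR libraries and from 16.9 to 3067 CPM in the Control libraries, and 0 of its 12 genes passed with edgeR or DESeq2. None of 12 oligodendrocyte genes passed in edgeR's test, with a median of 0.71, whereas 3 were higher with DESeq2 and 8 without LeuR 21. Mbp, a myelin protein, was at 9572, 8087 and 3028 CPM against 2198, 3317, 3782 and 4511 CPM (log2 fold change of 0.98 ± 0.34 (SE), adjusted p = 0.0837). The oligodendrocyte list summed to 19340, 15668 and 6858 CPM in the LeuR libraries and from 4952 to 10131 CPM in the Control libraries. In edgeR's test, 5 of the blood, 0 of the choroid plexus and 8 of the oligodendrocyte genes had an unadjusted p under 0.05, against 27% of all genes. None of 10 endothelial, 10 meningeal and 5 liver genes passed, with 0, 0 and 1 at an unadjusted p under 0.05 in edgeR's test and 0 with DESeq2. Without Control 4, 5 of the meningeal genes were higher. LeuR 19 was the highest of the 7 libraries for blood, choroid plexus and oligodendrocyte transcripts, and LeuR 21 lay inside the Control range for all 3.

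Of 10 microglial marker genes 0 passed in edgeR's test and 3 had an unadjusted p under 0.05, close to the 27% of all genes, with a median of -0.14, and DESeq2 gave 1 lower. Of 14 genes that microglia raise around amyloid plaques (disease-associated microglia), 3 rose and 0 fell, against 3.81% and 6.33% of all genes. Spp1, the secreted protein osteopontin, was at 193, 116 and 15.9 CPM against 9.54, 12.5, 39.8 and 16.2 CPM (log2 fold change of 2.46 ± 0.63 (SE), adjusted p = 0.0270). Gpnmb, a glycoprotein of phagocytes, was at 51.1, 28.5 and 4.31 CPM against 3.95, 4.36, 5.57 and 7.09 CPM (log2 fold change of 2.39 ± 0.61 (SE), adjusted p = 0.0281). Apoe, the lipid carrier, was at 2446, 1890.3 and 1999 CPM against 1231, 1451, 1615 and 1346 CPM (log2 fold change of 0.57 ± 0.15 (SE), adjusted p = 0.0331). Spp1 and Gpnmb were high in LeuR 19 and LeuR 20 and inside the Control range in LeuR 21, whereas Apoe was above all Control libraries in each. Without any 1 of LeuR 19, LeuR 20, Control 1, Control 3 and Control 5, 0 of the list passed, and with the hindbrain score as a covariate the log2 fold changes of Spp1 and Gpnmb were -0.73 and -0.51, opposite in sign to those without it. The blood and oligodendrocyte lists were likewise above the Control range in LeuR 19 and LeuR 20 alone, and their part in the result was not tested. The choroid plexus list was not, since its level in LeuR 20 lay inside the Control range.

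Among 12 interneuron genes, 3 fell and 1 rose, against 6.33% lower and 3.81% higher over all genes. Vip, the neuropeptide of a class of cortical interneurons, was at 4.22, 5.32 and 4.36 CPM against 34.8, 44.5, 16.4 and 42.9 CPM (log2 fold change of -2.92 ± 0.48 (SE), adjusted p = 0.00526). Cck, a neuropeptide of cortical and hippocampal neurons, was at 8.12, 42.6 and 37.5 CPM against 157, 203, 84.5 and 159 CPM (log2 fold change of -2.38 ± 0.45 (SE), adjusted p = 0.00851), and Npy, neuropeptide Y, at 2.90, 4.78 and 7.60 CPM against 27.7, 24.7, 7.30 and 21.9 CPM (adjusted p = 0.0122), with Control 4 level with LeuR 21. Slc32a1, the vesicular GABA transporter of inhibitory neurons in all regions, was higher, at 288, 199 and 262 CPM against 176, 114, 191 and 149.7 CPM (log2 fold change of 0.65 ± 0.17 (SE), adjusted p = 0.0276), a call lost without any 1 of Control 1, Control 3, Control 5 and LeuR 19. Among 10 astrocyte genes, 2 rose and 1 fell, against the same shares, and 0 passed without any 1 of Control 1, Control 3, LeuR 19 and LeuR 20: Aldoc, an aldolase, rose (1681, 1352 and 779.9 CPM against 625, 707, 879 and 588 CPM, adjusted p = 0.0244), with LeuR 21 inside the Control range, and Slc1a2, a glutamate transporter, fell (1480.5, 1449 and 1165 CPM against 3414, 3245, 1658 and 2146 CPM, adjusted p = 0.0270). Of 10 pan-neuronal genes, 1 rose and 1 fell, the latter being Syt1 (log2 fold change of -1.37 ± 0.27 (SE), adjusted p = 0.0106), counts that lie near those shares.

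To separate genes that follow region from the rest, each gene was classed in the 23 female libraries, none of which enters the male contrast. A gene was called region-associated when its level followed the cerebellum, brainstem and forebrain scores of the female libraries at an adjusted p under 0.05, with diet in the fit, and not region-associated when the unadjusted p was 0.05 or more. In females, 7208 of 20344 genes (35.4%) were region-associated. Of the 22197 genes tested in males, 7186 were region-associated, and of these 425 were higher and 955 lower in LeuR males, 19.2% in all. Of 11265 genes that were not region-associated, 297 were higher and 355 lower, 5.79% in all. A further 1625 genes lay between the limits, with 54 higher and 92 lower, and 2121 genes were not tested in females, with 69 higher and 2 lower. Genes of the cerebellar, brainstem and forebrain lists are part of the scores, so that their class is not independent of the lists. Of the 12 Hox genes tested in males, 11 were not tested in females.

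The direction in males followed the regional slope in females. Of the 425 region-associated genes that were higher in LeuR males, 414 also increased with the hindbrain score in females, and of the 955 that were lower, 944 decreased with it. Over all 7186 region-associated genes, called or not, the signs matched in 73.1%. Of the 297 higher genes that were not region-associated, 197 had a positive slope, and of the 355 lower ones, 274 had a negative slope, against 55.8% matching signs over that whole class. The class rests on a p that missed a threshold, so a gene in it may still follow region. With scores for the hypothalamus and the thalamus added to the female fit, a choice made after seeing the data, 187 higher and 280 lower genes were not region-associated, 4.32% of 10798.

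**Figure D3:**
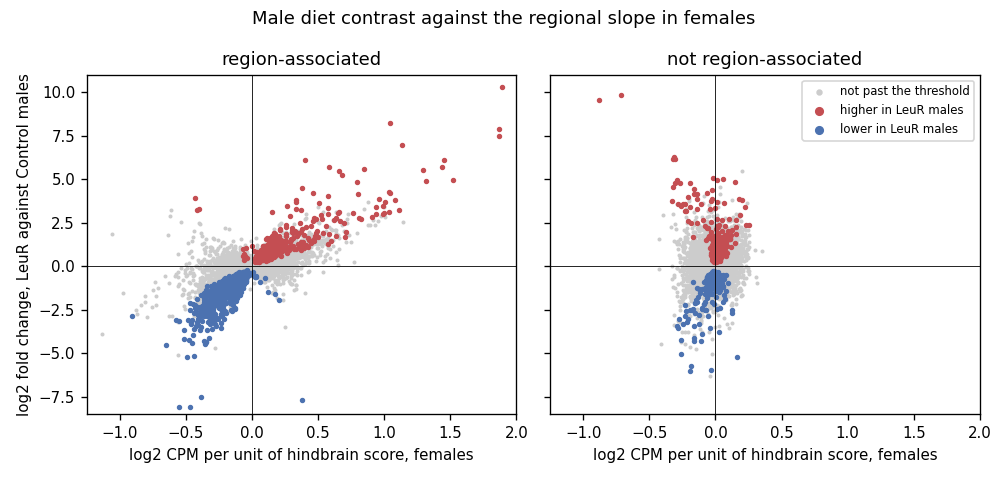
Log2 fold change between LeuR and Control males (y axis) against the slope of the same gene on the hindbrain score in female libraries (x axis, log2 CPM per unit of score), for region-associated genes on the left and genes that were not region-associated on the right. Red and blue points are genes higher and lower in LeuR males, and 414 of 425 red points on the left have a positive slope and 944 of 955 blue points a negative one.

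Among region-associated genes that passed, whose log2 CPM averaged at least 1 and whose groups did not overlap, the 5 largest rises were Hoxb4 and 4 further genes. Hoxb4 and Eomes were at or under 3 counts in every Control library, so that their place in this order depends on the fit. Eomes, a T-box factor of cerebellar unipolar brush cells, was at 1.45, 10.7 and 1.45 CPM against 0, 0, 0.192 and 0.110 CPM, at least 24.7-fold higher in the mean (adjusted p = 0.00916). Ppp1r17, a phosphatase inhibitor of Purkinje cells, was at 10.7, 26.4 and 5.65 CPM against 0.136, 0.0582, 0.704 and 0.275 CPM (log2 fold change of 5.55 ± 0.80 (SE), adjusted p = 0.00359). Skor1, a transcriptional corepressor, was at 6.30, 7.63 and 1.29 CPM against 0.273, 0.233, 0 and 0.165 CPM (adjusted p = 0.00359), and Lmx1b, a LIM homeobox factor of serotonergic and other hindbrain neurons, at 6.53, 3.31 and 4.47 CPM against 0.136, 0.0582, 0.512 and 0.110 CPM (adjusted p = 0.00800). Eomes was highest in LeuR 20, as was the granule cell list, and Skor1 was lowest in LeuR 21. Of the 5 largest falls, 4 are described here. Gm11549 was at 0.0454, 2.16 and 0.951 CPM against 39.8, 49.8, 8.07 and 38.0 CPM (log2 fold change of -5.13 ± 0.84 (SE), adjusted p = 0.00503) and 9130024F11Rik differed by -4.47 ± 0.79 on the log2 scale (adjusted p = 0.00694), with no overlap. Neither has a described product here. Robo3, a receptor of commissural axons, was at 1.36, 2.16 and 3.47 CPM against 55.6, 61.0, 11.4 and 70.7 CPM (log2 fold change of -4.43 ± 0.55 (SE), adjusted p = 0.00281), and Dkkl1 was at 0.544, 0.770 and 0.615 CPM against 15.9, 17.7, 3.84 and 14.6 CPM (log2 fold change of -4.36 ± 0.53 (SE), adjusted p = 0.00281). For these 4, Control 4 was the lowest Control library.

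By the same rule, the largest rises among genes that were not region-associated included those of Otp and Gal, described above, and of Calcr and Trh. Calcr, the calcitonin receptor, was at 6.40, 1.62 and 28.6 CPM against 0.0681, 0, 1.54 and 0.165 CPM (log2 fold change of 4.80 ± 1.06 (SE), adjusted p = 0.0159). Trh, thyrotropin-releasing hormone, was at 15.6, 2.85 and 71.3 CPM against 1.43, 0.640, 0.448 and 2.42 CPM (log2 fold change of 4.58 ± 1.06 (SE), adjusted p = 0.0190). Calcr and Trh were highest in LeuR 21. With the hypothalamus and thalamus scores added, Otp, Gal, Calcr and Trh were region-associated. The 5 largest falls in that class were those of Psrc1, Ntn5, Rtn4r, Ipcef1 and Hkdc1. Psrc1, a spindle protein, was at 0.499, 2.70 and 0.615 CPM against 12.1, 14.5, 5.57 and 15.9 CPM (log2 fold change of -3.32 ± 0.71 (SE), adjusted p = 0.0140). Ntn5, a netrin, was at 0.0907, 2.16 and 0.280 CPM against 3.95, 8.79, 4.16 and 8.20 CPM (log2 fold change of -3.01 ± 0.90 (SE), adjusted p = 0.0494). Rtn4r, the Nogo receptor that limits axon growth, was at 8.35, 22.7 and 12.0 CPM against 69.2, 122, 40.0 and 93.2 CPM (log2 fold change of -2.53 ± 0.43 (SE), adjusted p = 0.00618), higher in LeuR 20 than in the other LeuR libraries. Ipcef1 was at 13.7, 42.4 and 20.2 CPM against 163, 179, 56.2 and 176 CPM (log2 fold change of -2.52 ± 0.48 (SE), adjusted p = 0.00851), with the same order of the LeuR libraries, and Hkdc1, a hexokinase-like protein, was at 1.77, 2.00 and 1.01 CPM against 7.84, 13.8, 3.07 and 10.8 CPM (log2 fold change of -2.51 ± 0.53 (SE), adjusted p = 0.0132). In each of the 5 the LeuR libraries lay below all Control libraries. Psrc1 and Ipcef1 were in the class between the limits when the 2 further scores were added, and Ntn5 passed in 2 of the 7 fits that left out a library.

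With the hindbrain score of each library as a covariate, 13 genes passed (0.0586%), all higher in LeuR males, and 2002 had an unadjusted p under 0.05. None of the 1404 lower genes passed. The score holds no hypothalamic gene, and 6 of the 13 were on the hypothalamic list. No gene of the other lists passed. Genes of the cerebellar, Hox, brainstem, cortical, hippocampal and striatal lists make up the score. Adjustment for it takes up their own signal, so that the lack of calls among them is no test. The 13 were Oxt, Avp, Pmch, Hcrt, Pomc, the precursor of melanocortins (1.36, 1.16 and 24.1 CPM against 0.954, 0.407, 0.768 and 0.550 CPM), Nkx2-1, a homeobox factor of the ventral forebrain (0, 0.308 and 22.5 CPM against 1.70, 0.116, 0.0640 and 0.495 CPM), Bsx, a homeobox factor of the hypothalamus (0.0454, 0 and 5.76 CPM, no read in a Control library), Brs3, a bombesin-like receptor (0.136, 0.0770 and 4.03 CPM against 0.0681, 0.0582, 0 and 0 CPM), Parpbp (0.590, 0.231 and 8.00 CPM against 0.273, 0.233, 0.128 and 0.330 CPM), Lamb3, a laminin chain (2.40, 3.08 and 7.05 CPM against 1.57, 1.16, 1.66 and 1.49 CPM), Greb1, an oestrogen-regulated gene (3.04, 3.78 and 13.3 CPM against 3.95, 2.62, 3.59 and 2.97 CPM), Peg10 and Ngfr. LeuR 21 was the highest of the 7 libraries for all 13. Parpbp (chr10:88091432-88146941, minus strand) overlaps Pmch (chr10:88091072-88092375, plus strand), and whether its reads came from Pmch was not tested. Nkx2-1, Greb1 and Bsx had not passed without the covariate (adjusted p of 0.216, 0.116 and 0.0578).

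Ngfr, the low-affinity neurotrophin receptor p75 of basal forebrain cholinergic neurons and glia, had the smallest adjusted p of all genes. It lies at chr11:95568818-95587735, minus strand (GRCm38). Its level was 15.7, 11.9 and 19.0 CPM in LeuR 19, 20 and 21 and 1.98, 1.80, 3.39 and 2.25 CPM in Control 1, 3, 4 and 5, or 15.5 ± 3.55 CPM (SD, n = 3) in LeuR males and 2.36 ± 0.716 CPM (SD, n = 4) in Control males. Every LeuR library lay well above every Control library (log2 fold change of 2.71 ± 0.22 (SE), adjusted p = 0.000262). With the hindbrain score as a covariate the log2 fold change was 2.78 ± 0.32 (SE), adjusted p = 0.00445, and leaving out any of the 7 libraries kept the call. With LeuR and Control males alone the adjusted p was 0.0615. Ngfr was not region-associated by the 3 scores and became so when the hypothalamus and thalamus scores were added. Peg10, an imprinted gene derived from a retrotransposon, was also higher in every LeuR library, at 121, 68.3 and 366 CPM against 37.8, 27.5, 42.6 and 26.7 CPM (log2 fold change of 2.46 ± 0.44 (SE), adjusted p = 0.00697), and its level in LeuR 21 stood far above the rest.

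The genes of leucine breakdown differed by small fold changes, from -0.62 to 0.71 on the log2 scale. Of 16 genes, 2 rose and 1 fell, with a median log2 fold change of 0.13 against 0.05 over all genes, where 3.81% rose and 6.33% fell. In 7 of the 16 the unadjusted p was under 0.05 in edgeR's test, against 27% of all genes. The number that rose was 5 with DESeq2 or without LeuR 21, 7 without Control 4, 1 without LeuR 20 and 0 without any 1 of Control 1, Control 3, Control 5 and LeuR 19. Ppm1k, the mitochondrial phosphatase that activates the branched-chain ketoacid dehydrogenase complex, fell from 86.8, 75.6, 73.4 and 81.1 CPM in the Control libraries to 49.7, 53.9 and 52.8 CPM in the LeuR libraries (log2 fold change of -0.62 ± 0.09 (SE), adjusted p = 0.00359). It lies at chr6:57506502-57535468, minus strand (GRCm38). The groups did not overlap, and the call held without each of the 7 libraries but not with the score as a covariate (-0.42, adjusted p = 0.404). Ppm1k was region-associated in females. Bckdk, the kinase that inactivates the same complex, was at 33.1, 35.0 and 33.3 CPM against 29.6, 31.3, 33.2 and 34.3 CPM (log2 fold change of 0.06 ± 0.08 (SE), adjusted p = 0.665).

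Of the subunits of the complex, Bckdha was at 40.7, 37.6 and 36.4 CPM against 28.6, 31.7, 33.4 and 30.2 CPM and rose (log2 fold change of 0.29 ± 0.09 (SE), adjusted p = 0.0456). Bckdhb, its partner in the decarboxylase, was at 30.3, 28.6 and 21.2 CPM against 18.1, 19.8, 25.9 and 19.5 CPM (adjusted p = 0.140), Dbt, the transacylase core, at 26.1, 23.1 and 22.5 CPM against 23.6, 24.0, 24.5 and 23.0 CPM (adjusted p = 0.983), and Dld, the dehydrogenase shared with other complexes, had a log2 fold change of 0.16 ± 0.10 (adjusted p = 0.335). Of the transaminases, Bcat1, the cytosolic form, was at 235, 163 and 145 CPM against 84.4, 93.3, 155 and 106 CPM (log2 fold change of 0.71 ± 0.22 (SE), adjusted p = 0.0574), and Bcat2, the mitochondrial form, at 13.1, 12.4 and 13.1 CPM against 14.5, 16.2, 15.4 and 15.9 CPM (log2 fold change of -0.28 ± 0.14 (SE), adjusted p = 0.229). Bcat1 was highest in LeuR 19, with Control 4 above LeuR 21.

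Downstream of the complex, Mccc2, a subunit of methylcrotonyl-CoA carboxylase, was at 20.0, 18.3 and 24.0 CPM against 16.1, 15.8, 15.7 and 15.0 CPM and rose (log2 fold change of 0.40 ± 0.11 (SE), adjusted p = 0.0405), whereas Mccc1, the other subunit, had a log2 fold change of 0.11 ± 0.10 (adjusted p = 0.539). Ivd, which takes the first step after the complex, had 0.23 ± 0.11 (adjusted p = 0.195), Auh, the hydratase, 0.29 ± 0.09 (adjusted p = 0.0609), and Acat1, the thiolase, 0.19 ± 0.07 (adjusted p = 0.112). Hmgcll1, an enzyme of ketone body synthesis, and Oxct1, which activates acetoacetate, had -0.17 ± 0.19 and -0.19 ± 0.10 (adjusted p = 0.600 and adjusted p = 0.233). The calls of Bckdha and Mccc2 each held in 2 of the 7 fits that left out a library, and with the score as a covariate 0 of the 16 genes passed.

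**Figure D4:**
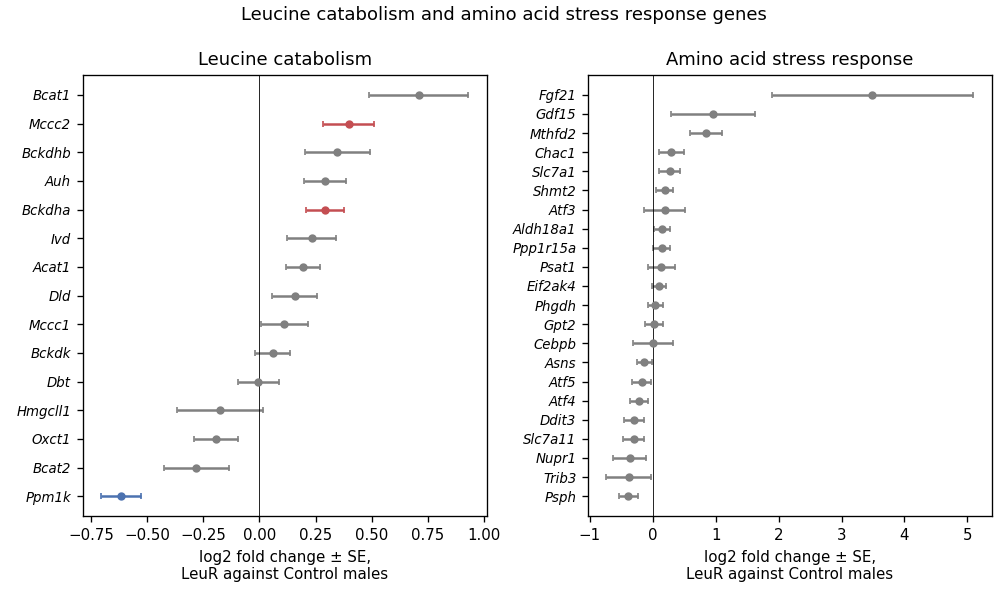
Log2 fold change between LeuR and Control males with its standard error (x axis) for 15 of 16 genes of leucine catabolism (left) and all 22 of the amino acid stress response (right). Blue marks Ppm1k, which fell, red marks Bckdha and Mccc2, which rose, and grey marks genes that did not pass, and 0 of the 22 stress response genes passed. Fgf21, at the top right, had no read in any Control library, so that its position depends on the fit.

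Of 11 transporters of branched-chain amino acids, 2 fell and 0 rose, against 6.33% and 3.81% of all genes, and 0 fell without LeuR 19 or without Control 3. Slc7a8, an exchanger of large neutral amino acids, was at 30.8, 54.9 and 44.1 CPM against 66.0, 96.3, 58.0 and 80.1 CPM (log2 fold change of -0.81 ± 0.20 (SE), adjusted p = 0.0234), and Slc6a17, a synaptic vesicle transporter of neutral amino acids, at 335, 385 and 447 CPM against 619, 719, 465 and 589 CPM (log2 fold change of -0.63 ± 0.15 (SE), adjusted p = 0.0201). Both were below all Control libraries in each LeuR library. Of 38 genes of leucine sensing and mTORC1, 1 rose and 0 fell, no more than the 3.81% and 6.33% of all genes. It was Rragb, a Rag GTPase that recruits mTORC1 to the lysosome, at 111, 89.5 and 123 CPM against 58.1, 55.2, 89.8 and 50.4 CPM (log2 fold change of 0.76 ± 0.17 (SE), adjusted p = 0.0180), with Control 4 level with LeuR 20, and its call was lost without Control 1, Control 3 or LeuR 19. Rragd, another Rag GTPase, was at 75.2, 73.7 and 97.3 CPM against 195, 117, 88.0 and 127 CPM and did not pass (log2 fold change of -0.69 ± 0.23 (SE), adjusted p = 0.0696).

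None of 22 genes of the amino acid stress response passed in edgeR's test, against 10.1% of all genes. Of the 22, 2 had an unadjusted p under 0.05, against 27% of all genes, DESeq2 gave 1, and their median log2 fold change was 0.07. Eif2ak4 was at 31.0, 33.7 and 32.8 CPM against 29.2, 34.4, 29.6 and 27.4 CPM (log2 fold change of 0.10 ± 0.11 (SE), adjusted p = 0.611), and Atf4 at 126, 116 and 85.8 CPM against 131, 146, 100.01 and 128 CPM (log2 fold change of -0.23 ± 0.14 (SE), adjusted p = 0.337). Asns, asparagine synthetase and a target of ATF4, was at 94.9, 91.0 and 78.6 CPM against 101, 98.5, 90.4 and 93.4 CPM (log2 fold change of -0.13 ± 0.11 (SE), adjusted p = 0.486). Of other ATF4 targets, Trib3, a pseudokinase, had a log2 fold change of -0.38 ± 0.35 (adjusted p = 0.523), Chac1, which degrades glutathione, 0.29 ± 0.20 (adjusted p = 0.364), and Ddit3, the factor CHOP, -0.30 ± 0.16 (adjusted p = 0.245). None of these passed. Mthfd2, a mitochondrial folate enzyme, came nearest to the threshold, at 27.8, 17.6 and 12.5 CPM against 8.72, 8.03, 14.2 and 11.7 CPM (log2 fold change of 0.84 ± 0.26 (SE), adjusted p = 0.0548), with LeuR 21 inside the Control range. Fgf21, a hormone raised by amino acid shortage in liver, had no read in the Control libraries and was at 0.0907, 0.0770 and 0.0559 CPM in the LeuR libraries, under the limit of 3 counts.

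Among neighbouring pathways, 3 of 18 propanoate genes rose and 1 fell, and 1 of 18 citrate cycle genes rose, against 3.81% higher and 6.33% lower over all genes. The 1 citrate cycle gene is near that share. Without Control 4 or LeuR 21, 6 or 7 propanoate and 4 or 6 citrate cycle genes rose. Hibch, an enzyme of valine breakdown, was at 17.9, 17.0 and 15.8 CPM against 10.6, 11.7, 13.3 and 11.0 CPM (log2 fold change of 0.53 ± 0.11 (SE), adjusted p = 0.0125). Hadha, a subunit of the mitochondrial enzyme of fatty acid oxidation, was at 119, 106 and 81.3 CPM against 69.7, 72.6, 80.0 and 73.9 CPM (adjusted p = 0.0168), with LeuR 21 next to Control 4. Abat, which degrades GABA, was at 606, 430.2 and 607 CPM against 304, 279, 443 and 293 CPM (log2 fold change of 0.72 ± 0.18 (SE), adjusted p = 0.0228), with Control 4 above LeuR 20. Ldha, lactate dehydrogenase, fell to 151, 127 and 168 CPM from 237, 226, 189 and 193 CPM (log2 fold change of -0.52 ± 0.12 (SE), adjusted p = 0.0204), and Pcx, pyruvate carboxylase, rose to 124, 110.3 and 106 CPM from 73.5, 83.4, 96.5 and 91.1 CPM (log2 fold change of 0.38 ± 0.09 (SE), adjusted p = 0.0240). The calls of Hadha, Abat, Ldha and Pcx each held in 3 of the 7 fits that left out a library, and that of Hibch in 6. Without LeuR 19 none of the 5 passed.

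Immediate early genes, which neurons transcribe within minutes of activity, were lower in LeuR males. Of 16 genes, 8 fell and 0 rose, against 6.33% lower over all genes, with a median log2 fold change of -1.35. Egr1, a zinc finger factor, was at 21.8, 41.6 and 41.2 CPM in the LeuR libraries and at 308, 494, 103 and 257 CPM in the Control libraries (log2 fold change of -3.08 ± 0.42 (SE), adjusted p = 0.00359). Egr3, of the same family, was at 1.32, 16.5 and 16.4 CPM against 191, 293, 52.5 and 158 CPM (log2 fold change of -3.96 ± 0.74 (SE), adjusted p = 0.00818). Arc, a synaptic protein made at active synapses, was at 21.4, 27.7 and 16.7 CPM against 169.9, 245, 38.0 and 139 CPM (log2 fold change of -2.78 ± 0.45 (SE), adjusted p = 0.00503), and Junb, a subunit of AP-1, at 16.6, 22.5 and 16.9 CPM against 40.1, 53.1, 34.4 and 36.7 CPM (log2 fold change of -1.16 ± 0.18 (SE), adjusted p = 0.00461). All LeuR libraries lay below all Control libraries for these 4 genes, with Control 4 the lowest of the Control libraries. The 4 were each region-associated in females, and 9 of the 16 genes of the list were. The calls of the 4 held without each of the 7 libraries, the count ranged from 4 without LeuR 19 to 11 without LeuR 20, and with the hindbrain score as a covariate 0 passed and the median was -1.40.

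**Figure D5:**
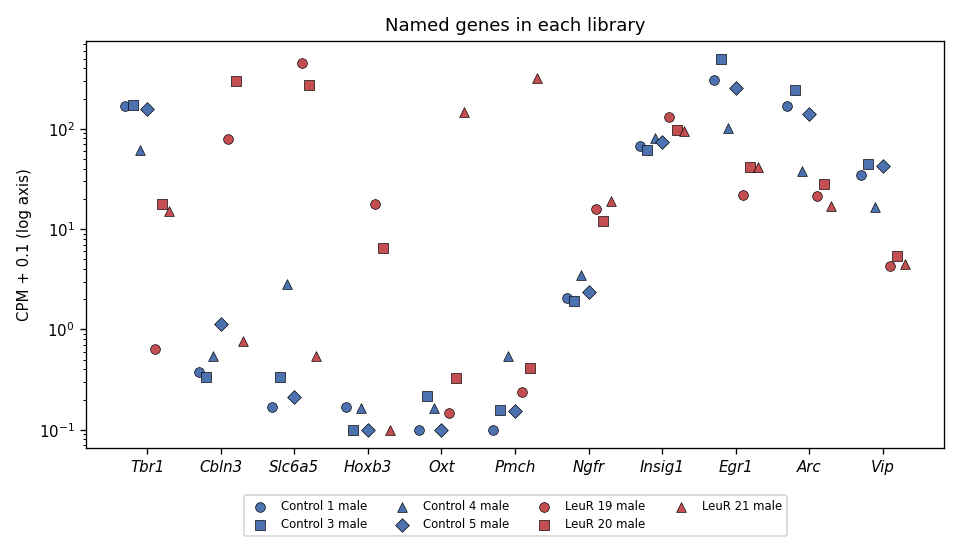
Level of 11 named genes in each male library, as CPM plus 0.1 on a log axis, with Control libraries in blue and LeuR libraries in red and 1 marker shape per library. Oxt and Pmch are high in LeuR 21 alone, Cbln3, Slc6a5 and Hoxb3 in LeuR 19 and LeuR 20, while Ngfr and Insig1 lie above, and Tbr1, Egr1, Arc and Vip below, the Control range in all 3 LeuR libraries.

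Genes of the feedback on MAP kinase signalling fell as well, 5 of 10 with 0 higher and a median of -0.71, against 6.33% lower over all genes. The count was 3 without Control 1, Control 3 or LeuR 19 and 4 to 6 without another library, and with the hindbrain score as a covariate 0 passed and the median was -0.58. Etv5, an ETS factor induced by the pathway, was at 47.5, 59.1 and 39.8 CPM against 134, 161, 76.8 and 125 CPM (log2 fold change of -1.36 ± 0.21 (SE), adjusted p = 0.00425). Dusp6, a phosphatase of ERK, was at 19.0, 20.0 and 17.8 CPM against 55.7, 69.9, 24.2 and 45.8 CPM (log2 fold change of -1.39 ± 0.28 (SE), adjusted p = 0.0106). Spred1 and Spred2, inhibitors of the pathway, had log2 fold changes of -0.75 ± 0.12 and -0.82 ± 0.22 (adjusted p = 0.00425 and adjusted p = 0.0313). The groups did not overlap for Etv5, Dusp6 and Spred1, and Control 4 lay just below LeuR 20 for Spred2.

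Promoter sequences are shown for 2 immediate early genes because they hold elements through which activity is known to reach this class of genes. Both genes were chosen for their sequence after the values were seen. Promoters were searched in the 250 bases before the start, on both strands, for the cAMP response element TGACGTCA and for the CArG box bound by the serum response factor. Of 16 immediate early genes, 12 were matched to 16 promoters in RefSeq (GRCm38.p6), and Egr1, Egr3, Arc and Ier2 were not matched, so that the shares below leave them out. The CArG box was found in 4 of the 16, all of them starts of Egr2, some of which overlap, against 1.47% of 32851 promoters. The cAMP response element was found in 1, that of Btg2, against 1.55% of all promoters. A match is a description of the letters and shows no binding. The Egr2 promoter (1 of 5 starts, chr10:67537316-67537565, plus strand) and the Btg2 promoter (chr1:134079156-134079405, minus strand) read as follows, with the match in capitals.
Egr2: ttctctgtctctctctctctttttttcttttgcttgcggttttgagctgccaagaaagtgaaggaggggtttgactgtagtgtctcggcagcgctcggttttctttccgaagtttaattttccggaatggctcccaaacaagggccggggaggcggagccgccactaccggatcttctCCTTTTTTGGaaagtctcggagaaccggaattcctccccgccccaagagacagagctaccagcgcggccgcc
Btg2: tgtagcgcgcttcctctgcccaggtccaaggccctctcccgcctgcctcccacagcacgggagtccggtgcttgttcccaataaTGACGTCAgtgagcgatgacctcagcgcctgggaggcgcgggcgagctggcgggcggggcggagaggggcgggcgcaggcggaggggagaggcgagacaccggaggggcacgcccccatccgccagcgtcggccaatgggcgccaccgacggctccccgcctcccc
Egr2, with the CArG box in capitals, was at 0.907, 1.23 and 0.503 CPM in the LeuR libraries and 5.52, 11.1, 1.98 and 3.08 CPM in the Control libraries (log2 fold change of -2.65 ± 0.67 (SE), adjusted p = 0.0269). Its call was lost without any 1 of Control 1, Control 3, LeuR 19 and LeuR 21. Btg2, with the cAMP response element in capitals, was at 10.8, 11.7 and 9.73 CPM against 11.0, 12.3, 14.0 and 11.3 CPM and did not pass (log2 fold change of -0.19 ± 0.14 (SE), adjusted p = 0.425). All 3 LeuR libraries were thus below the Control libraries for Egr2, while the groups overlapped for Btg2.

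Circadian clock genes fell in 6 of 16 cases and rose in 0, with a median of -0.62, against 6.33% lower over all genes. The count was 10 without Control 4, 4 without LeuR 19 and 5 to 8 without another library, and with the hindbrain score as a covariate 0 passed and the median was -0.25. Hlf and Tef, activators of the clock's output, were at 66.2, 118 and 106 CPM against 252, 277, 192 and 338 CPM (log2 fold change of -1.47 ± 0.22 (SE), adjusted p = 0.00386) and at 184, 258 and 278 CPM against 394, 418, 355 and 394 CPM (log2 fold change of -0.71 ± 0.14 (SE), adjusted p = 0.0101). Npas2, a partner of BMAL1 in the forebrain, was at 6.12, 17.5 and 15.5 CPM against 64.3, 52.9, 27.1 and 45.4 CPM (log2 fold change of -1.88 ± 0.36 (SE), adjusted p = 0.00841), and Bhlhe40, a repressor that activity also induces, at 69.9, 85.6 and 79.2 CPM against 163, 213, 109.8 and 225 CPM (log2 fold change of -1.20 ± 0.20 (SE), adjusted p = 0.00544). All 4 lay below the Control range in every LeuR library, and their calls held without each of the 7 libraries. Hlf and Npas2 were region-associated and Bhlhe40 and Tef were not. The hour at which the brains were collected is not given in the labels.

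Of 16 genes of cholesterol synthesis and uptake, 3 rose (against 3.81% over all genes) and 0 fell, with a median of 0.30, and in 10 of them the LeuR libraries lay above all Control libraries, against 8.18% over all genes. Insig1, which retains the sterol sensor in the endoplasmic reticulum, was at 129.99, 97.3 and 94.1 CPM against 67.0, 61.0, 80.6 and 72.9 CPM (log2 fold change of 0.59 ± 0.13 (SE), adjusted p = 0.0135), and Sc5d, a desaturase of the pathway, at 119.9, 92.3 and 83.3 CPM against 76.3, 72.7, 80.8 and 71.8 CPM (log2 fold change of 0.37 ± 0.10 (SE), adjusted p = 0.0381). LeuR 19 was the highest library for both. Dhcr7, the last enzyme of the pathway, did not pass (log2 fold change of 0.28 ± 0.10 (SE), adjusted p = 0.0891). Without LeuR 19 only 1 gene of the list rose, without LeuR 21, 5, and with the hindbrain score as a covariate 0 passed and the median was 0.09.

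Of 24 autophagy genes, 1 rose and 2 fell, 3 genes in all against 10.1% over all genes. Without Control 3 or LeuR 19, 0 rose and 1 fell, and without Control 4, 2 rose and 5 fell. Ulk2, a kinase that starts autophagy, was at 75.5, 81.1 and 84.2 CPM against 130.4, 118, 95.5 and 126 CPM (log2 fold change of -0.56 ± 0.10 (SE), adjusted p = 0.00762). Atg9a, a lipid scramblase of forming autophagosomes, was at 116, 118 and 125 CPM against 163, 166, 134 and 160.5 CPM (log2 fold change of -0.39 ± 0.09 (SE), adjusted p = 0.0163). Gabarapl2, a member of the ATG8 family, rose to 145, 128 and 140.3 CPM from 103, 103, 125 and 107 CPM (log2 fold change of 0.32 ± 0.09 (SE), adjusted p = 0.0343), a call that held in 3 of the 7 fits that left out a library. All 3 were region-associated. Of 15 genes of amyloid and tau biology, 1 rose and 1 fell, near the 3.81% and 6.33% of all genes, and 0 passed without Control 1, without Control 3 or without LeuR 19. Psen2, a presenilin, was at 22.1, 21.8 and 19.7 CPM against 13.2, 14.9, 17.7 and 15.6 CPM (log2 fold change of 0.45 ± 0.11 (SE), adjusted p = 0.0195), with no overlap. Cdk5r1, the p35 activator of the tau kinase CDK5, was at 88.5, 136 and 212 CPM against 384, 345, 207 and 318 CPM (log2 fold change of -1.12 ± 0.25 (SE), adjusted p = 0.0169). Cdk5r1 in LeuR 21 was above Control 4.

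The same diet was compared in 6 LeuR and 6 Control females. Of 20344 genes, 0 passed in edgeR's test, 820 had an unadjusted p under 0.05, and the smallest adjusted p was 0.968. A test of the difference between the male and the female effect gave 1 gene of 22465 (0.00445%). For the genes described here, the difference between the sexes did not pass. Ngfr was at median 6.44 CPM (range 1.99 to 26.8) in LeuR females and 2.94 CPM (1.74 to 8.96) in Control females, with overlap (difference between the sexes 1.52, adjusted p = 0.434). Egr1 was at median 182 CPM (range 40.2 to 347) in LeuR females and 223 CPM (60.9 to 347) in Control females (difference -2.79, adjusted p = 0.126), and Ppm1k at median 66.7 CPM (range 52.6 to 81.3) in LeuR females and 79.8 CPM (57.4 to 87.4) in Control females (difference -0.38, adjusted p = 0.390). In the females the immediate early gene list had a median log2 fold change of -0.09. Leaving out Control 4 raised the number of genes that differed between the sexes from 1 to 598, leaving out LeuR 20 gave 72, leaving out LeuR 21 gave 6, and leaving out any of the other 4 gave 1.

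LeuR males were also set against the mean of the IleR and ValR males, to ask which differences belonged to leucine among the 3 restricted diets. None of 22197 genes passed in edgeR's test, 4898 had an unadjusted p under 0.05, and the smallest adjusted p was 0.0592. Without LeuR 20, 609 genes passed, without LeuR 19, 197, and without LeuR 21, 0. Ngfr differed from that mean by a log2 fold change of 0.75, adjusted p = 0.0689, Egr1 by -0.10, adjusted p = 0.902 and Ppm1k by -0.11, adjusted p = 0.460. None of the 3 passed.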

How the data were processed

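RNA-seq of brain from male 3xTg mice was analysed. The authors deposited expected counts per gene from RSEM, 1 table for each sex, in which 3.92 to 4.64% of the values of the 7 libraries were not whole, and these were rounded here. The build is GRCm38.p5 per the labels, and limma and edgeR in R 3.4.3 are named in the submitters' notes. The authors' comparison tables hold their own fold changes and p-values and were not used. The labels name both polyA and total RNA.

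A gene was kept when some diet group had 1 count or more of it in each of its libraries. The 14 male libraries (4 diet groups) were fitted together in edgeR 4.0.16 (R 4.3.3) with TMM scaling, and LeuR was contrasted with Control in the quasi-likelihood test, with Benjamini-Hochberg adjustment over all genes tested. The SE is the log2 fold change divided by the root of F. Log2 CPM used a prior count of 2. Lower bounds set each Control library near 0 at 3 counts, and limits and bounds cover counting error only. Fits were checked on simulated data. DESeq2 1.42.0, limma voom 3.58.1, other filters and scaling, a fit of LeuR and Control males alone, the hindbrain score as a covariate and leaving out each library were the alternatives. Library numbers are unique, so nothing pairs the samples.

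The comparison, the gene lists and the tests were chosen with earlier results of these data known. Genes were named by rule: in each regional class, the 5 largest rises and falls at an adjusted p under 0.05 with no overlap and a mean log2 CPM of at least 1, genes that passed with the score as a covariate, up to 4 members of each list by p, genes the study names, and any gene of leucine catabolism or the amino acid stress response. Of 55416 gene identifiers, 3333 had no entry in the annotation used for coordinates (GENCODE M21). Results for a few genes that this rule names are not reported here.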

Additional observations from a re-analysis of the deposited data

Results flagged for a closer look

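In 13 of the 117 genes named, 1 Control library stood apart from the other 3 by Dixon's test for 4 values at the 95% level, which chance gives in about 1 in 20 genes. The library was Control 4 in 12 of the 13, and its values lay on the side of the LeuR libraries in each of the 12. They were 0.960 CPM for Otp, 1.54 for Calcr, 0.448 for Pmch, 0.0640 for Hcrt, 8.39 for Lhx1, 2.75 for Slc6a5, 0.0640 for Slc6a2, 61.9 for Tbr1, 56.2 for Ipcef1, 1052 for Syt1, 443 for Abat and 134 CPM for Atg9a. For Hcrt and Slc6a2 the other 3 Control libraries were at 0, so that any read sets a library apart and the chance rate does not apply. The 12 genes are not independent, since several follow region, and Control 4 also had the highest hindbrain score of the Control libraries (-4.86). Control 5 stood apart for Alb at 1.21 CPM.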

How the results depend on the processing

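The counts of genes that passed depended on which samples shared the fit. With LeuR and Control males alone, 0 genes were higher and 0 lower, and with the score as a covariate 13 and 0, of which 7 and 0 were not region-associated. DESeq2's Wald test gave 1496 higher and 2115 lower. Leaving out each library gave 142 to 1769 higher and 401 to 2183 lower genes, and 49 to 819 higher and 46 to 673 lower genes that were not region-associated. With 5 region scores, added after seeing the data, 187 higher genes were not region-associated. The difference between the sexes held for 1 to 598 genes, and LeuR differed from the other restricted diets in 0 to 609. The difference in hindbrain score stayed positive, at 3.78 to 6.81.

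Among the genes named that passed, the hindbrain score as a covariate reversed the sign for Hoxb3 (-0.12), Hoxb4 (-1.13), Aldoc (-0.14), Spp1 (-0.73) and Gpnmb (-0.51), and leaving out LeuR 21 reversed it for Avp (-0.42, against up to 9.27 without another library). Among those that had not passed, the covariate also turned the sign for Hoxa5 (-0.45), Hbb-bs (-0.93), Mbp (-0.39), Mthfd2 (-0.22), Bckdhb (-0.13), Dld (-0.11), Chac1 (-0.09), Auh (-0.0097), Crym (0.91), Hmgcll1 (0.39), Alb (0.37), Trib3 (0.25) and Adora2a (0.10). Leaving out LeuR 21 took Nkx2-1 from 3.70 to -2.13, leaving out Control 5 took Alb from -1.42 to 0.99, leaving out LeuR 19 took Hmgcll1 to near 0, and Dbt stayed near 0 with either sign. The cause was not tested, and Hoxb3, Hoxb4, Hoxa5 and Adora2a are themselves part of the score. The score and the diet go together in the males, so that the covariate also takes up part of the diet contrast. No paired analysis was possible because each library has its own number. With 3 libraries against 4, the exact permutation test cannot reach 0.05.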
